A study of Mus musculus with 18 samples.

Results

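The comparison described here set tissue around cysts that was rich in F4/80 signal (F4/80-high regions, 6 libraries) against tissue of the same 3 kidneys without cysts (non-cystic regions, 6 libraries). These are 12 of the 18 libraries in the series and were chosen by their titles. The remaining 6 libraries come from cystic tissue with little F4/80 signal (F4/80-low regions) of the same kidneys. All tissue was microdissected from frozen kidney sections of male C57BL/6 mice of the line iKspCre-Pkd1del, which carries a Cre of the kidney that tamoxifen switches on and loxP sites around exons 2 to 11 of Pkd1. Tamoxifen was given by gavage at 12.5 mg/kg on postnatal days 18 and 19, and the kidneys were taken in the mild phase of cystic disease, judged by magnetic resonance imaging. The deletion is common to all groups, so the non-cystic regions are tissue of the same mutant kidneys and not of healthy mice. Kidneys 1 and 3 carry an age label of 269 and kidney 2 one of 297, without a unit. Kidneys are numbered in the labels, and whether each is from another mouse is not stated. Each kidney and region type has 2 libraries, which were summed, so that n is 3 kidneys. The p-values rest on the spread among the sums of all 3 region types that kidney and region type leave unexplained. That spread, which includes the F4/80-low sums, has 4 residual degrees of freedom and was moderated across genes. The title of the series names paracrine factors around early cysts as its subject. Throughout, values are given for kidneys 1, 2 and 3 in that order, with the non-cystic regions before and the F4/80-high regions after the word against.

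Polycystin-1, the product of Pkd1, sits with polycystin-2 in the primary cilium and membranes of tubule cells, and its loss lets tubules widen into cysts. The normal kidney cortex is dominated by proximal tubule cells, which reabsorb most of the filtrate and depend on oxidative metabolism. F4/80, encoded by Adgre1, is a surface protein of mouse macrophages, cells that collect around cysts and can promote their growth. Adgre1 stood at 1.86, 3.66 and 2.17 CPM (counts scaled to a common library size) in the non-cystic and at 46.7, 44.0 and 71.1 CPM in the F4/80-high regions of kidneys 1, 2 and 3. The ranges are apart, and the log2 fold change (log2FC, F4/80-high over non-cystic) was 4.42 ± 0.31 (standard error, SE). F4/80 signal was used to choose the regions, so higher macrophage genes check the labels and are not a finding. Both groups held tubule RNA. Cdh16, the kidney-specific cadherin whose promoter drives Ksp-Cre in tubule cells, stood at 384, 362 and 323 against 199, 281 and 148 CPM (-0.80 ± 0.24). Pkd1 stood at 5.04, 7.68 and 6.21 against 6.89, 9.01 and 12.6 CPM and did not pass the test (log2FC 0.58 ± 0.33, adjusted p = 0.18). Its counts cover the whole gene, overlap a gene on the other strand and are compared between regions that share the deletion, so they do not check it.

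Totals ran from 5366651 to 9002054 counts in the non-cystic and from 5841975 to 8662288 in the F4/80-high libraries. Genes were tested on the kidney sums with edgeR's quasi-likelihood test, the kidney as a block, and called at a Benjamini-Hochberg adjusted p below 0.05. All adjusted p-values below come from this test. Of 16034 genes tested, 3156 (19.7%) were higher and 3133 (19.5%) were lower in F4/80-high regions. Of these 6289 calls, 6268 had the same direction in all 3 kidneys, and for 4192 the 6 libraries of one group all lay outside the range of the other 6. The test itself favours such genes, so both counts describe the calls and are not separate support for them. Changes upward were larger: 770 genes rose by more than 8-fold and 218 fell by more than 8-fold. The median log2FC was 1.94 among the higher and -1.23 among the lower genes. The lower genes were the abundant ones, as they held 63.8% of all counts in non-cystic and 27.1% in F4/80-high regions. Higher genes went from 3.79% to 26.7% of the counts. Spp1 alone held 6.41 to 14.1% of the counts in F4/80-high libraries, against 0.0433 to 0.332% in non-cystic libraries.

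**Figure D1:**
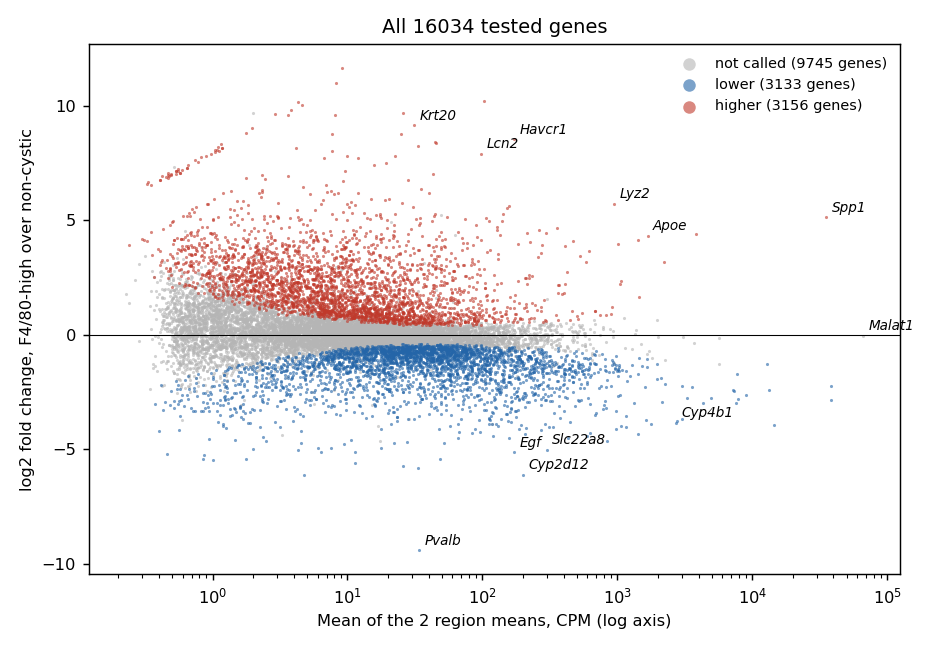
Each point is 1 of the 16034 tested genes. The horizontal axis is the mean of the non-cystic and F4/80-high mean levels in CPM on a log axis, and the vertical axis is the log2 fold change. Red points were higher (3156), blue points lower (3133) and grey points not called. The lower genes reach the right side of the plot, where the most abundant genes lie, and the largest rises lie among genes of low and middle level.

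With abundant genes lower, the values depend on the scaling. The trimmed mean of M values (TMM) gave factors of 0.768 to 0.909 for the non-cystic and of 1.18 to 1.47 for the F4/80-high sums, and left the median log2FC of all genes at 0.04. Scaling by total counts alone moved that median to 0.65 and gave 6608 higher and 1463 lower genes. All 3156 higher calls and 1463 of the lower calls were shared by both scalings, and no gene was called in opposite directions. Values below are on the TMM scale unless said otherwise. The library kit does not mark strand, so counts of named genes that overlap another annotated gene are uncertain, namely Arg2, Atp6v0a4, Bicc1, Ccl25, Cdk4, Col4a3, Cp, Ctsl, Cxcl16, Egf, Esrra, Hk3, Hmgcs1, Il11ra1, Il34, Ltbp2, Notum, Pdgfra, Pfkp, Pkd1, Pkhd1, Psmb8, Slc6a20b, Timp3, Tpi1, Umod, Vcam1 and Wnk4. The same holds for members of near-identical families such as Cyp2d12, Ugt2b37, Serpina1b and Hbb-bs. Counts of members called with total-count scaling stand in brackets or in the next sentence, as "with total counts", for part of the lists. Lists without them can move as well.

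Among the largest rises were genes known from tubule injury, inflammation and matrix. Havcr1, the injury molecule KIM-1 of proximal tubule cells, stood at 0.177, 0.658 and 2.48 CPM in the non-cystic and 409, 344 and 268 CPM in the F4/80-high regions (log2FC 8.53 ± 1.01, adjusted p = 0.0011). Lcn2, which encodes the iron-carrier-binding protein NGAL, went from 0.442, 3.00 and 0.0776 to 156, 194 and 237 CPM (7.92 ± 0.96). Spp1, which encodes osteopontin, stood at 1405, 2836 and 2302 against 81587, 64313 and 59174 CPM (5.12 ± 0.72). In none of these 3 genes did the groups overlap, though the non-cystic levels of Havcr1 and Lcn2 varied widely among kidneys. Fgb, which encodes a fibrinogen chain, rose from 0.884, 1.46 and 1.32 to 111, 42.1 and 25.6 CPM, highest in kidney 1. Thbs2 (thrombospondin 2) stood at 2.21, 2.34 and 1.24 against 92.7, 36.5 and 130 CPM, and Col8a1, a short-chain collagen, at 1.59, 4.68 and 1.94 against 66.2, 71.8 and 180 CPM. Kidney 2 had the lowest F4/80-high value of Thbs2.

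Among the largest falls were secretory and metabolic genes of the tubule. Cyp2d12, a cytochrome P450, stood at 464, 458 and 258 CPM in the non-cystic and at 10.2, 13.8 and 0 CPM in the F4/80-high regions (log2FC -6.12 ± 1.13, adjusted p = 0.0069). Slc22a8, the organic anion transporter OAT3, stood at 640, 491 and 607 against 35.0, 27.3 and 1.55 CPM (-5.03 ± 0.98). Slc7a13, a proximal tubule amino acid transporter, stood at 1447, 996 and 957 against 62.9, 105 and 7.62 CPM (-4.43 ± 0.94). In each the F4/80-high value of kidney 3 was far below those of kidneys 1 and 2. Egf, the growth factor made by the thick ascending limb and distal tubule, behaved otherwise, at 458, 228 and 311 against 4.37, 21.1 and 6.57 CPM (-5.15 ± 0.64), with its lowest value in kidney 1. Calb1, the calcium buffer of distal tubule cells, stood at 554, 592 and 1287 against 18.9, 142 and 7.35 CPM, with kidney 2 highest among the F4/80-high regions.

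**Figure D2:**
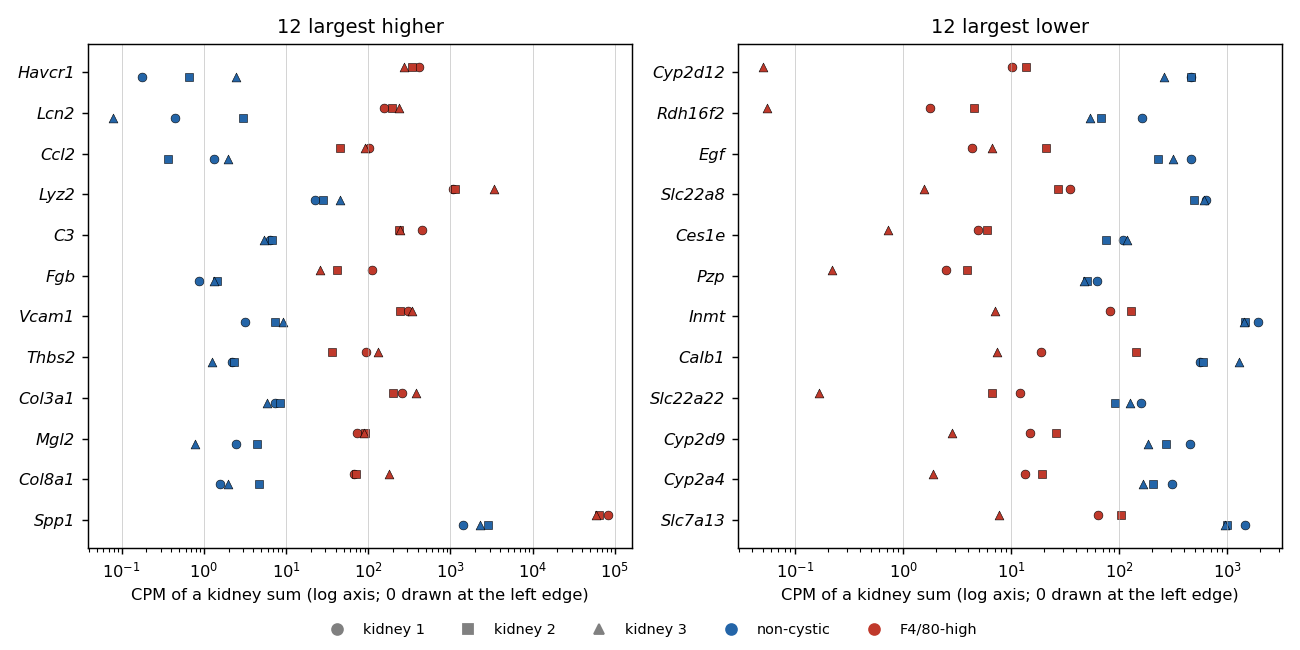
Levels in CPM on a log axis of the 12 largest rises (left) and the 12 largest falls (right). Circles, squares and triangles are kidneys 1, 2 and 3, blue for non-cystic and red for F4/80-high regions, and a level of 0 is drawn at the left edge. The red and blue points of each gene lie apart, and among the falls the triangle of kidney 3 is the lowest red point for most genes.

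The F4/80-high tissue of kidney 3 was the most extreme of the 3. It held the lowest F4/80-high level for 2357 of the 3133 lower genes and the highest for 2064 of the 3156 higher genes. For proximal tubule genes this was so for 23 of the 24 lower members and for macrophage core genes for 18 of the 18 higher members. Its 2 libraries were among the smallest, with 6550353 and 5841975 counts, and its TMM factor was the largest. Without kidney 3 there were 2976 higher and 2881 lower genes. Without kidney 1 there were 1737 and 1622, and without kidney 2 there were 2188 and 2161.

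Proximal tubule genes fell together. Of 27 tested members of the identity and brush border list, 24 fell and none rose, with a median log2FC of -2.64 beside 0.04 for all genes. With total counts 19 fell and 1 rose. Within kidneys 1, 2 and 3 the median difference was -2.32, -1.67 and -4.09. Aqp1, the water channel of proximal tubule and thin limb, stood at 278, 197 and 197 against 45.5, 52.9 and 22.9 CPM (log2FC -2.49 ± 0.31, adjusted p = 0.00036). Ggt1, a brush border enzyme of glutathione breakdown, stood at 900, 729 and 568 against 66.2, 141 and 31.9 CPM (-3.34 ± 0.45). Neither gene overlapped between the groups. Slc9a3, the apical sodium-proton exchanger, fell from 26.1, 19.2 and 18.6 to 5.52, 6.73 and 1.93 CPM (-2.26 ± 0.31), and Anpep, a brush border peptidase, from 26.6, 18.9 and 21.4 to 8.47, 8.27 and 7.40 CPM (-1.45 ± 0.20). Mme, the brush border peptidase neprilysin, was among the 3 members that did not pass, at 35.5, 33.7 and 42.9 against 44.8, 38.4 and 43.0 CPM (0.17 ± 0.15). In bulk tissue, fewer cells of a type and less RNA per cell cannot be told apart.

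Drug and solute transporters fell as well. Of 19 tested organic anion, cation and drug transporters, 15 fell and 1 rose (14 and 1 with total counts), with a median of -3.23. Slc22a6, the anion transporter OAT1, stood at 723, 569 and 452 against 40.4, 71.0 and 9.39 CPM (-4.05 ± 0.58). Slc47a1, the apical cation exporter MATE1, stood at 469, 364 and 406 against 98.6, 98.8 and 23.2 CPM (-2.59 ± 0.48). Abcc3, a basolateral export pump, was the member that rose, from 1.68, 1.24 and 1.40 to 9.62, 8.02 and 13.8 CPM (2.84 ± 0.36, adjusted p = 0.00044). Its apical relative Abcc2 fell from 181, 164 and 198 to 55.3, 49.3 and 21.5 CPM. Among 20 plasma membrane amino acid transporters 11 fell and 4 rose (8 and 5 with total counts). Slc6a20b, a proximal imino acid carrier, fell (-1.99 ± 0.27), and Slc1a5 and Slc38a1, glutamine carriers found in many dividing cells, rose (0.87 ± 0.24 and 1.92 ± 0.40). The ranges of Slc1a5 overlapped between the groups.

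In the distal convoluted and connecting tubule list 11 of 13 members fell (8 with total counts), with a median of -1.92. Pvalb, the calcium-binding parvalbumin of early distal convoluted tubule, stood at 71.9, 94.2 and 37.5 CPM and fell to 0, 0.347 and 0 CPM (-9.41 ± 0.68, adjusted p = 0.0001). Wnk4, a kinase that sets sodium chloride transport there, stood at 34.4, 36.2 and 33.2 against 6.89, 16.1 and 8.23 CPM (-1.82 ± 0.22). In the thick ascending limb list 8 of 12 fell (7 with total counts). Slc12a1, its sodium-potassium-chloride carrier, stood at 144, 51.4 and 48.9 against 30.7, 15.2 and 11.1 CPM (-2.07 ± 0.32), with non-cystic tissue of kidney 1 far above the others. Umod (uromodulin) did not pass, at 1052, 768 and 712 against 386, 772 and 220 CPM, with nearly the same level in both regions of kidney 2. Intercalated cell genes fell in 10 of 15 (5 with total counts), among them Slc4a1, the chloride-bicarbonate exchanger (-2.99 ± 0.57). Of 12 principal cell genes 2 fell and none rose, beside 19.5% lower and 19.7% higher among all genes. Aqp3 fell from 29.3, 42.1 and 44.7 to 4.68, 5.59 and 0.331 CPM. Scnn1a, a sodium channel subunit, fell from 19.8, 31.4 and 27.3 to 7.73, 10.2 and 6.19 CPM. Aqp2, the vasopressin-regulated water channel, did not pass, at 41.2, 95.5 and 35.1 against 9.94, 103 and 1.99 CPM, and the groups overlapped. Of 9 genes of thin limb and collecting duct related epithelium 5 rose and 1 fell (6 and 1 with total counts), with a median of 2.47.

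Among 18 nephron transcription factors and pan-epithelial genes 7 fell and 1 rose (5 and 2 with total counts). Hnf4a, a regulator of proximal tubule maturation, stood at 254, 237 and 252 against 70.8, 77.1 and 33.5 CPM (-2.06 ± 0.31, adjusted p = 0.001). Esrrb (-2.62 ± 0.42) fell too. Epcam, an adhesion protein of simple epithelia that is low in proximal tubule, rose from 13.4, 21.4 and 27.6 to 39.9, 63.6 and 64.0 CPM (1.43 ± 0.27). The calls of Hnf4a and Epcam held under all 3 other scalings.

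Most genes of the respiratory chain and the tricarboxylic acid cycle fell. All 13 mitochondrially encoded genes fell, with a median log2FC of -2.995, and their share of all counts went from 11.0 to 14.2% in non-cystic to 1.77 to 3.55% in F4/80-high regions. Of the nuclear genes for respiratory complexes, all 37 tested members of complex I, 4 of complex II, 9 of complex III and 15 of the ATP synthase fell, and 11 of 14 for complex IV. Their medians lay from -1.63 to -1.43. With total counts the falls numbered 13, 32, 4, 9, 14 and 11 in the order mitochondrial, complexes I to III, ATP synthase and complex IV. Ndufv1, a core subunit of complex I, stood at 441, 431 and 351 against 157, 195 and 102 CPM (-1.46 ± 0.26). Cox7a2l, which helps to join complexes III and IV, did not pass, at 169, 180 and 159 against 159, 203 and 158 CPM (0.02 ± 0.18). Of 26 genes of the tricarboxylic acid cycle and pyruvate entry 24 fell (19 with total counts), for example Ogdh at 284, 270 and 238 against 94.2, 98.9 and 66.4 CPM (-1.62 ± 0.19). Pdk4, which blocks pyruvate entry, stood at 1.94, 3.00 and 0.854 against 3.94, 6.93 and 1.49 CPM and did not pass (1.03 ± 0.39).

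**Figure D3:**
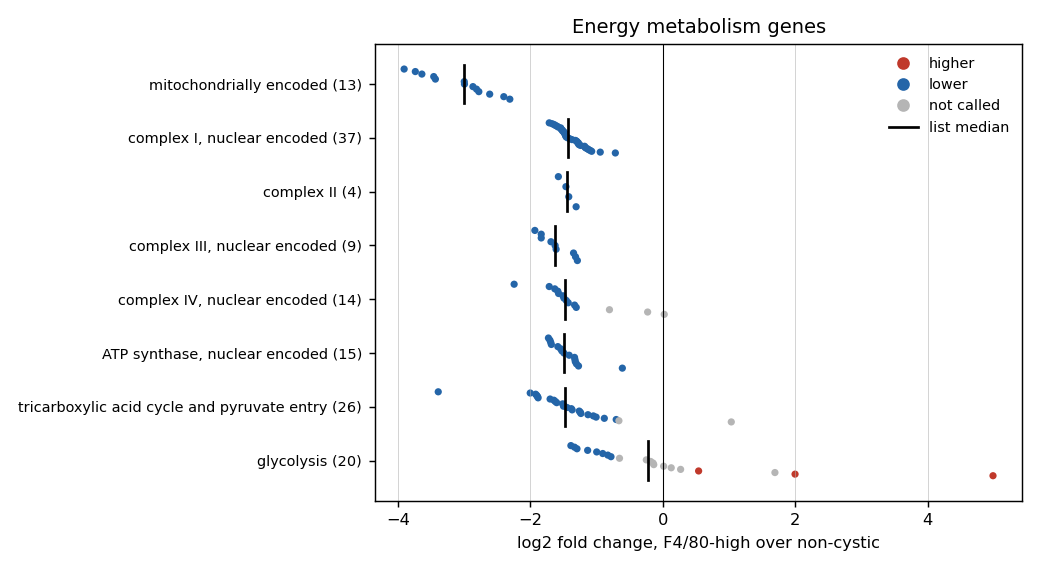
Each point is a gene placed by its log2 fold change, in rows by gene list with the number of tested members in brackets. Blue points were lower, red points higher and grey points not called, and the black bar is the median of the list. The mitochondrially encoded genes lie farthest to the left with a median of -2.995, the nuclear respiratory genes lie around -1.4 to -1.6, and glycolysis genes spread over both sides of 0.

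Genes for fuel use fell with them. Of 25 fatty acid oxidation genes 23 fell (20 with total counts) and of 22 peroxisomal genes 21 fell (18). Acads, the short-chain acyl-CoA dehydrogenase, stood at 59.1, 69.9 and 46.8 against 13.3, 21.7 and 15.3 CPM (-1.81 ± 0.17, adjusted p = 0.00011). It fell in all 3 kidneys without overlap. All 10 genes of gluconeogenesis and fructose use fell under both scalings. Pck1, the rate-setting enzyme of gluconeogenesis, stood at 512, 598 and 505 against 35.7, 81.9 and 11.2 CPM (-3.92 ± 0.52), and Slc37a4, the glucose-6-phosphate carrier, at 722, 497 and 523 against 141, 154 and 64.4 CPM (-2.31 ± 0.32). Of 32 genes of amino acid breakdown and creatine synthesis 30 fell (29 with total counts). Prodh, the first enzyme of proline breakdown, fell from 216, 247 and 184 to 27.2, 54.7 and 17.5 CPM. The exception was Arg2, the mitochondrial arginase, which rose from 13.9, 15.5 and 12.5 to 21.6, 22.1 and 24.1 CPM (0.71 ± 0.25).

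Most regulators of these pathways were lower. Of 14 genes for mitochondrial biogenesis and PPAR signalling 10 fell and 1 rose (4 and 2 with total counts). Ppara, the activator of fatty acid oxidation, stood at 46.8, 45.2 and 41.1 against 8.42, 15.8 and 4.09 CPM (-2.36 ± 0.32). Esrra and Ppargc1b, which act on mitochondrial genes, fell too (-1.25 ± 0.19 and -1.36 ± 0.23). Pparg, known from fat cells and macrophages, rose from 1.33, 0.732 and 0.0776 to 2.31, 4.65 and 3.59 CPM (2.66 ± 0.77, adjusted p = 0.022).

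Glycolysis did not follow one direction. Of 20 members 8 fell and 3 rose, beside 19.5% lower and 19.7% higher among all genes. With total counts 3 fell and 3 rose, and the median turned from -0.22 to 0.41. Hk2, the inducible hexokinase, stood at 0.177, 0.220 and 0.0776 against 2.79, 3.27 and 10.4 CPM (4.99 ± 0.75), highest in kidney 3. Hk3 (2.00 ± 0.63) and Pfkp (0.54 ± 0.17) also rose, and Gpi1 (-0.91 ± 0.19) and Tpi1 (-1.33 ± 0.29) fell. The ranges of Hk3 and Pfkp overlapped between the groups.

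Of 20 cholesterol genes 6 rose and 7 fell (7 and 4 with total counts), beside 19.7% higher and 19.5% lower among all genes. The median turned from -0.09 to 0.54 with total counts. Among those that rose were the efflux and storage genes Abca1, from 6.28, 9.51 and 17.0 to 51.8, 46.0 and 56.4 CPM (2.30 ± 0.25), Abcg1 (2.10 ± 0.30), Apoe, from 204, 158 and 108 to 2569, 2317 and 4734 CPM (4.32 ± 0.42), and Soat1 (0.97 ± 0.18). Among those that fell was the synthesis gene Hmgcs1, from 282, 246 and 334 to 93.8, 81.7 and 60.4 CPM (-1.85 ± 0.26).

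Defence and clearance enzymes fell too. Of 20 antioxidant genes 17 fell (13 with total counts), and of 21 cytochrome P450 genes 14 fell and 3 rose (13 and 3). Cat (catalase) stood at 770, 608 and 647 against 151, 147 and 72.2 CPM (-2.47 ± 0.34). Cyp4b1, the most abundant P450 named here, stood at 5887, 5259 and 4033 against 342, 601 and 181 CPM (-3.84 ± 0.47). The P450 genes that rose were Cyp1b1, Cyp7b1 and Cyp4v3, with log2FC of 2.20 ± 0.41, 2.74 ± 0.44 and 2.56 ± 0.33. Of 26 conjugation enzymes and carboxylesterases 19 fell and 3 rose (18 and 5). Ugt2b37, a glucuronidation enzyme, was the abundant exception at 234, 119 and 68.6 against 833, 512 and 445 CPM (2.15 ± 0.38, adjusted p = 0.0021).

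Start-site sequences were compared because many tubule genes fell and many leucocyte genes rose together. RefSeq promoter windows (GRCm38.p6, 250 bases before to 50 after a start) were found for 2328 of the 3156 higher, 2408 of the 3133 lower and 7140 of the 9745 uncalled genes, which have 2985, 3063 and 9072 windows. The word GAGGAAGT, part of the site of the myeloid factor PU.1, was in 5.06% of the windows of higher, 2.35% of lower and 2.83% of uncalled genes, on either strand, and in 3.20% of all 32851 windows. TGAGTCA (AP-1) was in 5.63%, 4.18% and 3.46% (5.20% of all), CAAAGTCCA (HNF4 type) in 0.503%, 0.751% and 0.364% (0.475%), and TCAAGGTCA (ERR type) in 0.302%, 0.261% and 0.287% (0.423%). A match is a description of letters and not a bound site. The 2 stretches below, of genes that rose, show the word GAGGAAGT or its reverse complement in capitals, 5′ to 3′ in the direction of the gene.
Spp1, chr5:104434952-104435051, plus strand, word ending 105 bases before the start: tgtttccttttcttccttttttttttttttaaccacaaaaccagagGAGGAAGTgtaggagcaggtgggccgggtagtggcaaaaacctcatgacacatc
Pycard, chr7:127993868-127993967, minus strand, word on the other strand, ending 36 bases before the start: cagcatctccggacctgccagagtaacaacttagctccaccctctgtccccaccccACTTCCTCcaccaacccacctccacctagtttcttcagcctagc

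Pycard, the adaptor protein of inflammasomes, stood at 27.5, 29.7 and 24.3 CPM and rose to 82.4, 80.8 and 78.4 CPM (1.57 ± 0.15, adjusted p = 0.00012), with close values among kidneys. Atp6v0a4, the proton pump subunit of intercalated and proximal cells, fell from 355, 404 and 299 to 151, 189 and 42.6 CPM (-1.63 ± 0.36), lowest in kidney 3.

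Leucocyte genes rose beyond those of the macrophage. Of 18 T and natural killer cell genes 14 rose, of 9 B and plasma cell genes 5 and of 12 dendritic cell genes 9, and none of these fell. Cd3g, a chain of the T cell receptor complex, stood at 1.77, 1.32 and 0.544 against 13.8, 10.9 and 17.6 CPM (3.53 ± 0.42, adjusted p = 0.00033). Ccl17 and Ccl22, chemokines of dendritic cells and macrophages, stood at 7.78, 14.4 and 22.6 and 0.842, 2.28 and 3.98 CPM in F4/80-high regions. Ccl22 had 134 counts there against 1 in non-cystic regions, a ratio of 88.5 (exact 95% counting interval 15.6 to 3522), or 50.5 (8.74 to 2023) without library 2 of kidney 3, which was highest. Igkc, an antibody light chain, rose within each kidney, at 1006, 1315 and 119 against 3982, 1673 and 519 CPM, while its group ranges overlapped because kidney 3 was low in both. Of 6 neutrophil genes 2 rose (4 with total counts), beside 19.7% higher among all genes. S100a9 did not pass, at 1.41, 3.37 and 0.699 against 1.05, 6.98 and 2.65 CPM. The tissue resident macrophage gene Mertk stood at 27.8, 23.4 and 29.5 against 23.1, 24.0 and 36.5 CPM and did not pass (0.05 ± 0.24), though 18 of 21 macrophage core genes rose.

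Machinery of phagocytes rose with a few members against it, though members such as Tyrobp and Ctss are also macrophage genes. Such members check the labels and are not a finding, as a macrophage marker was used to choose the regions. Of 13 Fc receptors and adaptors 12 rose. Fcgrt, the neonatal Fc receptor that proximal tubule cells use to save albumin, fell from 390, 279 and 276 to 201, 213 and 185 CPM (-0.64 ± 0.22). In the list of phagocyte oxidase and haematopoietic signalling 14 of 16 rose and Cyba, the oxidase subunit that tubule cells also express, fell from 2722, 1718 and 1402 to 1210, 1080 and 566 CPM (-1.04 ± 0.36). With total counts Fcgrt and Cyba were no longer called. Lysosome genes were divided: 11 of 30 rose, 3 fell and the median was 0.06 (19 and 2 with total counts). Ctss, the cathepsin of antigen-presenting cells, stood at 17.9, 33.8 and 27.4 against 527, 468 and 1055 CPM (4.66 ± 0.34), and Ctsl, a cathepsin of many tissues, at 599, 504 and 618 against 693, 611 and 733 CPM (0.25 ± 0.23, not called). Antigen presentation by class I also rose in 15 of 17 members. Psmb8, an immunoproteasome subunit, stood at 15.8, 23.3 and 12.2 against 176, 146 and 131 CPM (3.19 ± 0.24).

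Secreted factors of the innate response rose broadly. Of 18 CC chemokines 15 rose, among them Ccl2, the monocyte attractant, from 1.33, 0.366 and 1.94 to 102, 45.8 and 91.8 CPM (6.18 ± 0.32, adjusted p = 8.8e-06), and Ccl6, from 4.33, 8.56 and 10.2 to 130, 163 and 524 CPM (4.97 ± 0.36). Ccl25 fell (-1.10 ± 0.23). Of 12 CXC and CX3C chemokines 9 rose. Cxcl5 and Cxcl2, attractants of neutrophils, had no count in non-cystic regions and 503 and 330 counts in F4/80-high regions, at least 110.8-fold and 72.7-fold higher over a floor of 3 counts per group. Library 1 of kidney 2 held most of the Cxcl5 counts, with 32.7 CPM beside 6.59 CPM in the next library, and without it 204 counts remained, at least 54.4-fold higher. For Cxcl2, 211 counts remained without library 2 of kidney 3, which was highest, at least 54.6-fold higher. Cxcl16, which holds lymphocytes, was already abundant, at 81.7, 66.1 and 55.1 against 374, 426 and 391.5 CPM (2.57 ± 0.22). Cxcl12 fell from 38.0, 42.4 and 32.2 to 18.0, 15.6 and 18.7 CPM (-1.12 ± 0.24). The Ccl25 and Cxcl12 calls were lost with total counts.

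Of 19 cytokine genes 12 rose and 2 fell. Il33, an alarm signal of damaged tissue, stood at 10.4, 19.4 and 10.6 against 48.3, 84.2 and 97.8 CPM (2.51 ± 0.22), and Il34, a ligand of the CSF1 receptor on macrophages, at 16.6, 15.1 and 13.7 against 41.4, 45.2 and 64.0 CPM (1.70 ± 0.21). Il1rn, the antagonist of interleukin 1, stood at 0.0884, 2.05 and 0.776 against 8.31, 33.7 and 20.9 CPM (4.56 ± 0.39), lowest in kidney 1. Il15, made by tubule cells for lymphocyte survival, fell from 35.0, 31.3 and 29.8 to 13.0, 9.16 and 7.07 CPM (-1.75 ± 0.18, adjusted p = 0.00017), and so did Mif (-1.20 ± 0.25). On the receiving side 28 of 33 cytokine receptors and signalling brakes rose and Il11ra1 fell (-1.29 ± 0.23). Of 28 genes of NF-kB and innate sensing 25 rose and Nod2, a sensor of bacterial wall fragments, fell (-1.85 ± 0.42).

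Complement genes rose widely, though members such as C1qa, C1qb, C1qc and C3ar1 are also macrophage genes. The regions were chosen by F4/80 signal, so such members check the labels and are not a finding. Of 22 members 18 rose and none fell, with a median of 3.69, and the range of their summed level went from 734 to 842 CPM up to 3083 to 4619 CPM. C3, the central component, stood at 6.36, 6.66 and 5.36 against 450, 237 and 243 CPM (5.61 ± 0.27, adjusted p = 8.8e-06), highest in kidney 1. C4b stood at 5.66, 7.90 and 9.40 against 60.8, 70.2 and 61.1 CPM (3.10 ± 0.21), and Serping1, the inhibitor of the first component, at 36.5, 53.9 and 44.6 against 427, 390 and 585 CPM (3.39 ± 0.29). Cfb, the alternative pathway factor B, was abundant in both groups, at 533, 349 and 446 against 391, 333 and 205 CPM, and was not called (-0.51 ± 0.31). Cfd, the protease that starts the alternative pathway, had 65 counts in F4/80-high against 3 in non-cystic regions, a ratio of 14.3 (4.69 to 71.2), and was not called. Without library 2 of kidney 1, which was highest, the ratio was 6.02 (1.82 to 31.3).

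The interferon response list rose in 21 of 28 members without a fall (26 with total counts). Gbp2, a guanylate-binding protein, stood at 2.30, 3.44 and 3.18 against 42.2, 22.9 and 22.3 CPM (3.28 ± 0.39), and Oasl2 at 6.36, 7.90 and 7.53 against 29.2, 28.3 and 26.3 CPM (1.94 ± 0.22). The antiviral gene Ifit3 did not pass, at 11.1, 11.9 and 12.8 against 69.1, 33.3 and 34.9 CPM (1.97 ± 0.85, adjusted p = 0.12). Its groups did not overlap. Interferon genes departed from the pattern of kidney 3: of the 21 that rose, 13 had their highest F4/80-high level in kidney 1.

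Matrix genes rose. Of 30 matricellular and matrix glycoproteins and proteoglycans 29 rose, and of 15 fibrillar and beaded collagens 13 rose. Mgp, an inhibitor of calcification, stood at 39.0, 80.3 and 41.2 against 713, 845 and 1099 CPM (4.11 ± 0.31), and Dpt (dermatopontin) at 0.0884, 0.439 and 0.0776 against 9.31, 7.87 and 7.68 CPM (5.45 ± 0.58). Col27a1 was the collagen that fell, from 20.8, 10.1 and 21.1 to 5.52, 5.50 and 5.14 CPM (-1.61 ± 0.26, adjusted p = 0.0013). Col4a3 and Col4a4, chains of the mature glomerular and tubular basement membrane, fell as well (-0.64 ± 0.19 and -0.89 ± 0.22), while 12 of 22 basement membrane genes rose (16 with total counts), such as Agrn (1.66 ± 0.17). The 2 falls of Col4a3 and Col4a4 were lost with total counts.

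Of 28 matrix proteases and their inhibitors 16 rose and 3 fell (21 and 1 with total counts). Mmp2 and Mmp3, matrix metalloproteinases, stood at 61.8, 39.9 and 69.0 and 21.5, 33.3 and 39.4 CPM in F4/80-high regions against 2.39, 3.44 and 1.17 and 0.0884, 0.512 and 0 CPM. Timp1, their inhibitor, stood at 0.177, 0.658 and 0 against 70.0, 113 and 82.6 CPM (8.44 ± 0.72, adjusted p = 0.00028). The abundant inhibitor Timp3 moved the other way, from 2344, 2518 and 1711 to 901, 925 and 741 CPM (-1.35 ± 0.29). Of 21 serpins 15 rose and 1 fell (18 and 1 with total counts). Serpine2, an inhibitor of thrombin and plasminogen activators, stood at 21.4, 25.02 and 30.5 against 416, 415 and 451 CPM (4.05 ± 0.35), with nearly the same level in the 3 F4/80-high sums. Serpinf2, the plasmin inhibitor, fell from 234, 211 and 140 to 36.2, 67.1 and 15.7 CPM (-2.41 ± 0.43).

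Tubule injury genes rose in 28 of 30 tested members. Krt20, a keratin of injured tubule, had 0.177, 0 and 0.155 CPM in non-cystic and 40.9, 56.6 and 89.8 CPM in F4/80-high regions (9.14 ± 0.52, adjusted p = 1.6e-05). Vcam1, a marker of tubule cells that fail to recover and of activated endothelium, stood at 3.18, 7.24 and 9.24 against 308, 244 and 338 CPM (5.55 ± 0.33). Both were apart in all 3 kidneys. Of 17 keratin and epithelial junction genes 9 rose and 1 fell (10 and 0 with total counts). Of its 7 claudin genes 5 rose, among them Cldn1 and Cldn4 (3.43 ± 0.37 and 2.52 ± 0.43), and Cldn2, the leaky claudin of the proximal tubule, fell (-0.77 ± 0.26; not called with total counts). Cldn8 did not pass and overlapped between groups, at 50.5, 83.8 and 83.5 against 90.8, 117 and 39.8 CPM.

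Cell cycle genes rose in 21 of 32 members and fell in none (28 and 0 with total counts). Of the 21 that rose, 13 were highest in kidney 1. Birc5 (survivin) stood at 2.83, 3.80 and 8.00 against 21.4, 13.2 and 16.9 CPM (1.85 ± 0.37, adjusted p = 0.0038), and Mcm5, of the replication helicase, at 4.59, 1.24 and 1.63 against 11.3, 8.27 and 11.2 CPM (2.18 ± 0.35). Cdk4 did not pass (0.29 ± 0.18). Of 20 cell cycle inhibitors and p53 target genes 9 rose and 1 fell (14 and 1 with total counts). Cdkn2b, a cycle inhibitor that encodes p15, had 744 counts in F4/80-high and 2 in non-cystic regions, a ratio of 245.8 (67.8 to 2033). Without library 2 of kidney 3, which was highest, the ratio was 176.2 (48.5 to 1459). Immediate early genes rose in 11 of 17 members (13 with total counts). Among these, Egr1 rose from 1.68, 3.88 and 4.50 to 12.0, 15.8 and 52.5 CPM. Klf6 rose from 43.0, 93.0 and 56.3 to 338, 314 and 396 CPM.

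Growth factor genes were divided. Beside the fall of Egf, the EGF receptor ligand Areg (amphiregulin) had 55 counts in F4/80-high against 2 in non-cystic regions, a ratio of 18.2 (4.80 to 153.8). Library 2 of kidney 3 held most of the Areg counts, with 4.29 CPM beside 0.828 CPM in the next library, and without it 21 counts remained, a ratio of 8.15 (1.99 to 71.7). Tgfa rose from 0.353, 0.220 and 0.776 to 2.05, 2.97 and 2.98 CPM (2.58 ± 0.64). Areg and Tgfa remained far below the level that Egf had in non-cystic tissue. In the list of PDGF, VEGF, FGF, IGF and HGF genes 13 of 34 rose and 10 fell (14 and 4 with total counts). Among all genes 19.7% were higher and 19.5% lower. Igf1 rose from 9.01, 4.90 and 10.6 to 42.6, 25.6 and 63.4 CPM (2.40 ± 0.24, adjusted p = 0.00013). The carriers of insulin-like growth factors divided: Igfbp3, Igfbp4 and Igfbp5 fell (-1.66 ± 0.22, -1.42 ± 0.24 and -1.48 ± 0.26), and Igfbp2 went from no count to 511 counts, at least 112.5-fold higher over a floor of 3 counts, or 71.4-fold without library 2 of kidney 3, which was highest. The receptor genes Pdgfra and Pdgfrb of stromal cells rose (2.21 ± 0.26 and 2.15 ± 0.27).

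Of 27 TGF-beta, activin and BMP genes 12 rose and 1 fell (18 and 1 with total counts). Ltbp2, a matrix protein of the latent TGF-beta binding family, stood at 0, 0.146 and 0.155 against 20.4, 17.7 and 33.2 CPM (7.71 ± 0.47, adjusted p = 1.6e-05). Bmp7, which maintains tubule epithelium, fell from 32.7, 22.2 and 26.0 to 11.8, 6.98 and 9.83 CPM (-1.51 ± 0.19). Of 35 Wnt and Notch genes 15 rose and 1 fell (18 and 1 with total counts). Wnt4, a signal of nephron formation and repair, rose from 0.265, 0.146 and 0.311 to 3.47, 2.13 and 10.0 CPM (4.24 ± 0.56), and the inhibitor Nkd2 from 1.06, 0.439 and 0.311 to 28.4, 19.0 and 65.5 CPM (5.89 ± 0.62). Notum, an enzyme that inactivates Wnt proteins, fell from 2.92, 3.29 and 2.72 to 0.105, 0.446 and 0.221 CPM (-3.58 ± 0.52).

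Of 26 polycystin, cyst disease and ciliary genes 4 rose and 5 fell, close to the shares of 19.7% and 19.5% among all genes. With total counts 8 rose and none fell, and the median turned from -0.07 to 0.56. Pkd2 stood at 102, 74.8 and 88.9 against 67.5, 55.5 and 54.6 CPM (-0.58 ± 0.15, adjusted p = 0.013) and was not called with total counts. Bicc1, an RNA-binding protein whose loss causes cysts, rose from 113, 141 and 115 to 239, 200 and 252 CPM (0.91 ± 0.20), and Pkhd1, the gene of recessive polycystic kidney disease, rose from 116, 101 and 100 to 196, 159 and 145 CPM (0.65 ± 0.17). Of 27 genes of cyclic AMP, vasopressin and chloride secretion 9 rose and 4 fell (14 and 0 with total counts). Ano1, a chloride channel, rose from 2.30, 0.951 and 3.34 to 14.0, 4.85 and 18.9 CPM (2.48 ± 0.45), and the cyclase gene Adcy7, known from leucocytes, rose as well (2.92 ± 0.29). Pde4c, a phosphodiesterase of cilia, fell (-1.27 ± 0.29). Of 20 mTOR and AMP kinase genes 3 rose and 6 fell, and with total counts 7 rose and 3 fell and the median turned from -0.19 to 0.44. Mtor fell from 80.4, 68.9 and 81.2 to 33.5, 29.7 and 19.1 CPM (-1.49 ± 0.23), and Prkaa2, a catalytic subunit of AMP kinase, from 105, 92.0 and 118 to 29.3, 30.4 and 12.7 CPM (-2.16 ± 0.31).

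Of 18 iron handling genes 9 rose and 6 fell (10 and 2 with total counts). Tfrc, the transferrin receptor, fell from 44.1, 34.4 and 54.4 to 7.52, 7.13 and 8.40 CPM (-2.51 ± 0.17, adjusted p = 1.8e-05), with close values among kidneys. Trf (transferrin) rose from 13.7, 20.4 and 11.5 to 116, 108 and 237 CPM (3.33 ± 0.44), Cp (ceruloplasmin) from 14.0, 33.7 and 17.8 to 558, 366 and 576 CPM (4.59 ± 0.38) and Hp (haptoglobin) from 0.0884, 1.24 and 0.388 to 11.9, 40.4 and 36.4 CPM (5.93 ± 0.53). Fth1, the heavy chain of the iron store ferritin, fell from 14506, 13040 and 7849 to 3567, 4943 and 2534 CPM (-1.71 ± 0.44).

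Some genes often used as references differed between the regions. Of 17 members 2 rose, 6 fell and 9 were not called, beside shares of 19.7% higher and 19.5% lower among all genes. B2m stood at 340, 383 and 396 against 1851, 1792 and 1524 CPM (2.20 ± 0.27, adjusted p = 0.00034) and Actb at 272, 405 and 235 against 443, 585 and 821 CPM (1.03 ± 0.29). Gapdh, picked out after its values were seen, fell from 1147, 1009 and 733 to 286, 577 and 350 CPM (-1.30 ± 0.30), and Sdha from 572, 520 and 504 to 232, 234 and 140 CPM (-1.42 ± 0.25). Eef1a1, at 1333, 1309 and 1232 against 1400, 1693 and 1334 CPM, did not pass (0.18 ± 0.27). With total counts 9 rose and 5 fell, and the median turned from -0.10 to 0.51.

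Of 19 tested endothelial genes 3 rose and 1 fell, beside 19.7% higher and 19.5% lower among all genes. With total counts 11 rose and none fell. Pecam1 stood at 22.4, 29.0 and 16.0 against 34.7, 36.4 and 34.9 CPM (0.70 ± 0.21), and Emcn at 76.7, 76.1 and 46.4 against 73.6, 109 and 133 CPM (0.72 ± 0.32, not called). Of 12 podocyte and parietal cell genes 1 rose (2 with total counts), the parietal cell claudin Cldn1, although the median was 1.75. Haemoglobin genes fell: Hbb-bs stood at 273, 751 and 222 against 19.6, 154 and 162 CPM (-2.21 ± 0.59, adjusted p = 0.02), with kidney 1 far below the others. All 5 lower members of the list of erythrocyte, adipocyte, nerve and urothelium genes had their lowest F4/80-high level in kidney 1, and with total counts 1 member of that list was lower. The part of blood content in the other results was not tested.

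**Figure D4:**
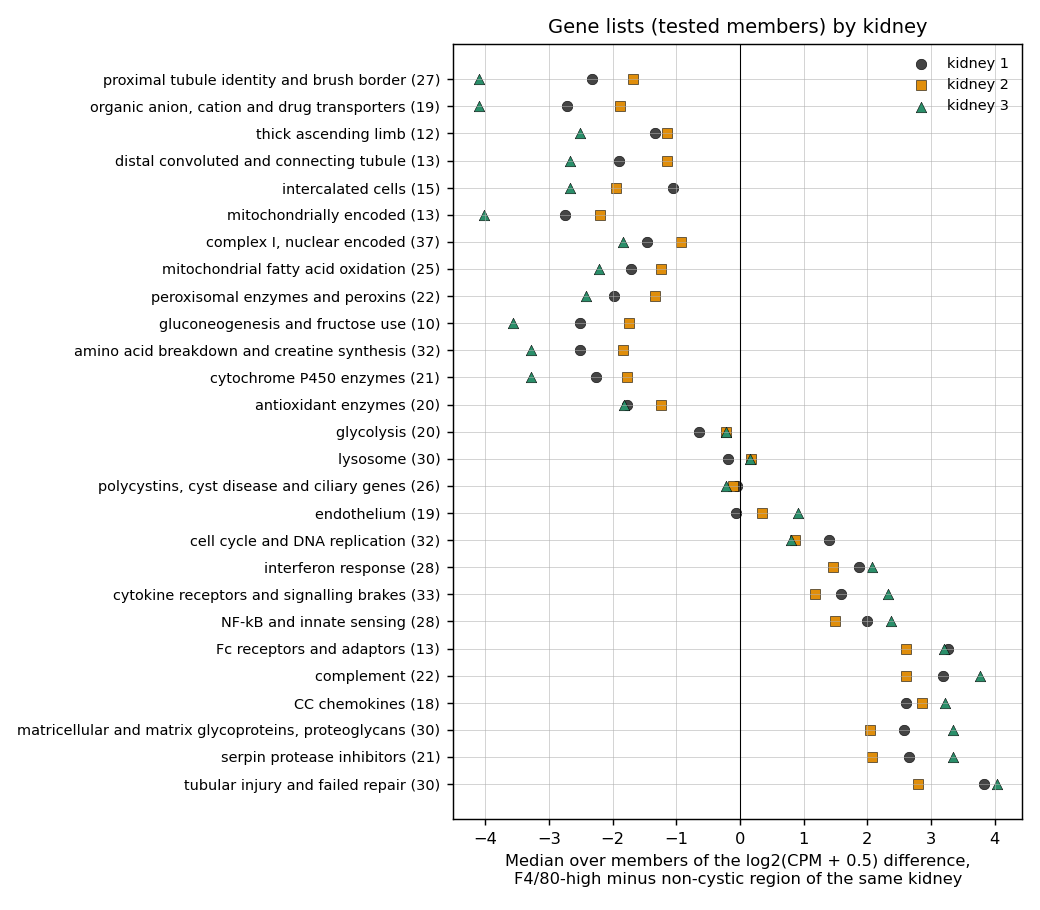
Each symbol is the median over a list's tested members (number in brackets) of the difference in log2(CPM + 0.5) between the F4/80-high and non-cystic sum of 1 kidney. Circles, squares and triangles are kidneys 1, 2 and 3. Tubule, mitochondrial and fuel-use lists lie left of 0 in every kidney, with kidney 3 farthest left for proximal tubule genes (-4.09) and mitochondrially encoded genes (-4.01), and complement, chemokine, matrix and injury lists lie right of 0 in every kidney.

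The F4/80-low regions of the same kidneys were set beside the F4/80-high regions. Both comparisons share the non-cystic sums, so their values are given side by side, and the direct test of F4/80-high against F4/80-low regions in the same model is the comparison between them. That test called 1649 genes (10.3%) higher and 2246 genes (14.0%) lower in F4/80-high than in F4/80-low regions. Over non-cystic tissue, proximal tubule genes had medians of -0.19 (F4/80-low) and -2.64 (F4/80-high), and 22 of 27 were lower in the direct test. Slc22a8 stood at 401, 298 and 372 CPM in F4/80-low regions (-4.33 ± 0.95 for F4/80-high over F4/80-low, adjusted p = 0.021). Fatty acid oxidation genes had medians of -0.12 and -1.71, with 22 of 25 lower in the direct test. Intercalated cell genes had medians of -1.73 and -2.03, and 1 of 15 differed in the direct test. Slc4a1 stood at 3.94, 3.02 and 0.752 CPM in F4/80-low regions (-0.64 ± 0.56, adjusted p = 0.44).

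The genes that rose were divided in the same way. Havcr1 stood at 51.5, 339 and 204 CPM in F4/80-low regions, and its direct difference was 1.16 ± 0.75 (adjusted p = 0.31). Fgb stood at 15.1, 63.8 and 87.8 CPM there (0.09 ± 0.90, adjusted p = 0.95). The F4/80-low and F4/80-high ranges of both genes overlapped, and the direct test did not pass. C3 at 142, 138 and 107 CPM (1.22 ± 0.22) and Krt20 at 13.1, 42.7 and 38.5 CPM (1.07 ± 0.29) had risen in F4/80-low regions and were higher still in F4/80-high regions (adjusted p = 0.0052 and 0.028). Thbs2 at 8.23, 2.10 and 5.04 CPM (4.08 ± 0.47, adjusted p = 0.0021) and Serpina1b (1.93 ± 0.36 and 5.29 ± 0.35 over non-cystic tissue) were far higher in F4/80-high regions. Of 28 interferon response genes 9 were higher in the direct test, of 22 complement genes 14 were higher and 1 was lower, and of 30 injury genes 18 were higher and 2 lower. Endothelial genes had medians of 0.47 and 0.42.

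**Figure D5:**
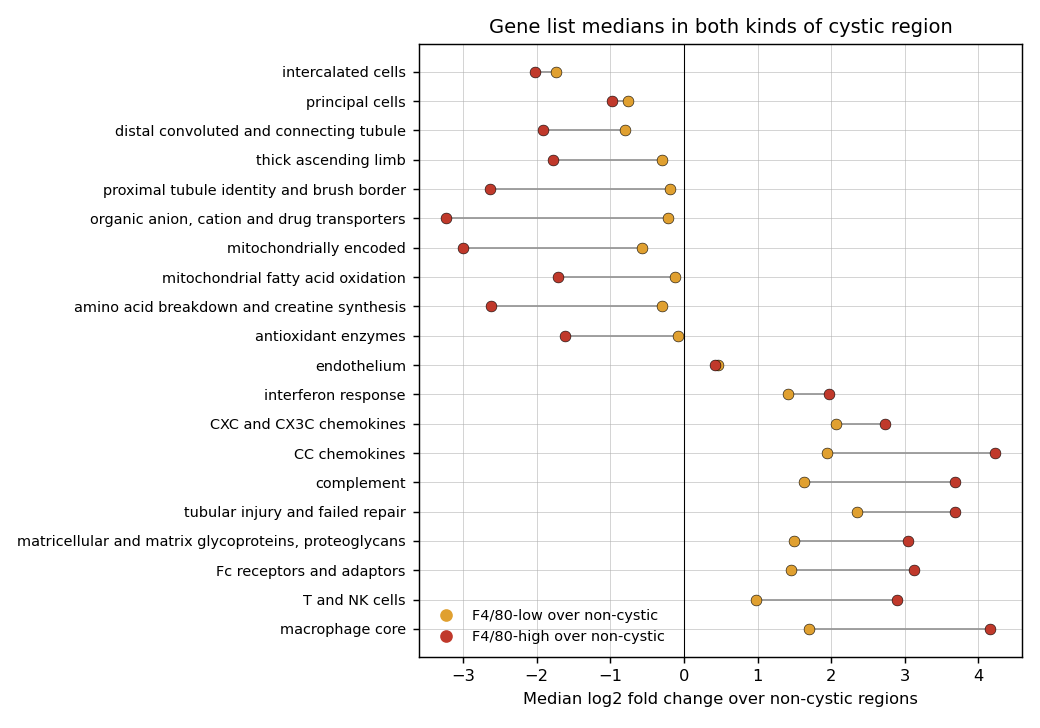
Median log2 fold change over non-cystic regions of each gene list in F4/80-low (yellow) and F4/80-high (red) regions, joined by a line. The yellow and red points of intercalated cell genes (-1.73 and -2.03) lie close together, and those of proximal tubule genes (-0.19 and -2.64) and of macrophage core genes (1.70 and 4.16) lie far apart. Both colours share the same 3 non-cystic sums.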

How the data were processed

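RNA of 18 microdissected regions was sequenced from a low-input kit. Reads per gene were deposited by the authors as raw counts in 1 matrix. Per the submitters' processing notes, FastQC 0.11.9, fastp 0.20.1, HTSeq 0.11.0 and the build mm10 (GRCm38) were used. For aligner, annotation and strand option: not given in the sources used here. Genes and lists to describe were chosen with earlier results of these data known.

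The 2 libraries of each kidney and region were summed and TMM-scaled. Of 32285 genes, 16034 passed edgeR's filterByExpr and were fitted in edgeR 4.0.16 (R 4.3.3, glmQLFit and glmQLFTest, kidney as block, all 3 region types sharing 1 dispersion), with Benjamini-Hochberg adjustment over all tested genes. The SE is the absolute log2FC divided by the square root of F. Sums of a kidney paired only weakly: deviations of its non-cystic and F4/80-high sums correlated at 0.11, 0.15 and 0.10. Without the kidney block 3216 genes were higher and 3139 lower in F4/80-high than in non-cystic regions. Named genes were chosen by rule from the 12 largest rises and falls (mean log2 CPM of at least 3) and, per list, the 4 smallest p-values, members called the other way and the 2 most abundant uncalled members, with Pkd1, Pkd2, Adgre1 and Cdh16. Gapdh was added after its values were seen. Symbols not matched were Cyp2c44, Cxcl11, Mx1, Mx2 and Clec7a. Promoters are RefSeq windows (GRCm38.p6). The fit was run on simulated counts with few changed genes and no kidney effect. That setting differs from the data here, so it does not test the scaling. Alternatives used DESeq2 1.42.0 and limma 3.58.1. Counting intervals cover counting error only. A few results are not reported here.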

Additional observations from a re-analysis of the deposited data

Results flagged for a closer look

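A library stood far from the other 5 of its group when the gap to its nearest neighbour exceeded Dixon's critical share of the range of the 6 values. Over 332 groups of 6 values, 43 held such a library. For independent normal values about 1 in 20 groups would be flagged by chance. CPM need not be normal and libraries share kidneys, so the number of flags cannot be set against that rate. Values below are CPM of that library, each with that of the next library.

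In the non-cystic group, 6 of the 15 libraries so found were library 2 of kidney 2, and its genes were known from injury, matrix or inflammation, namely Col8a1 (6.89, next 2.73), Dpt (0.616, next 0.227), Il1rn (3.20, next 1.17), Il33 (23.5, next 12.8), Lcn2 (5.05, next 0.889) and Mmp3 (0.739, next 0.178). Library 1 of kidney 3 was highest for Adcy7 (3.74, next 1.48), Ccl22 (0.117, next 0) and Havcr1 (3.50, next 0.863). In kidney 1, library 1 was highest for Cdkn2b (0.356, next 0) and Pparg (2.49, next 0.862) and library 2 for Aqp1 (316, next 226), Ccl25 (31.2, next 19.7) and Cfd (0.503, next 0). Malat1, a nuclear RNA, took its lowest share of counts in library 2 of kidney 1, at 4.26% (next 5.72%).

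In the F4/80-high group, library 1 of kidney 2 was highest for 9 genes. Among them were the distal tubule and thick ascending limb genes Calb1 (248, next 55.6), Egf (32.9, next 11.7), Pvalb (0.766, next 0), Umod (1276, next 522) and Wnk4 (22.1, next 11.4). It was also highest for Cxcl5 (32.7, next 6.59), Esrrb (2.85, next 1.22), Igfbp3 (70.2, next 30.2) and Il1rn (58.5, next 24.9). Library 2 of kidney 3 was highest for Agrn (110, next 74.3), Areg (4.29, next 0.828), Ccl6 (786, next 326), Cdkn2b (36.5, next 15.8), Cxcl2 (15.0, next 7.34), Egr1 (92.2, next 21.9), Serpina1b (95.02, next 30.8) and Wnt4 (16.4, next 5.12). Library 2 of kidney 1 was highest for C3 (658, next 319), Cdk4 (250, next 214), Fgb (215, next 49.1), Nod2 (2.84, next 1.01) and Spp1 (117700, next 72170). Library 1 of kidney 1 was highest for Pkd2 (81.7, next 58.5), Slc12a1 (55.7, next 19.3) and Ugt2b37 (1191, next 598), library 2 of kidney 2 for Cox7a2l (233, next 171) and library 1 of kidney 3 for Cyp1b1 (103, next 61.0) and Pdgfrb (114, next 57.3).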

How the results depend on the processing

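The counts for F4/80-high against non-cystic regions (3156 higher, 3133 lower) depended most on the scaling and the size asked for. Total counts gave 6608 and 1463, and a test against a 2-fold change (glmTreat) 1362 and 848. Leaving out 1 library or 1 kidney gave 1737 to 3327 higher and 1622 to 3275 lower genes. The lowest counts came without kidney 1. For F4/80-high against F4/80-low regions (1649 higher, 2246 lower) the alternatives were added after seeing the data. Total counts gave 4211 and 1120 and glmTreat 235 and 287. All 18 libraries with the kidney as a block gave 2687 and 2939, and with kidney and replicate number as paired blocks 2558 and 2830. Leaving out 1 library or kidney gave 467 to 1722 higher and 521 to 2441 lower genes, with 467 and 521 without kidney 1 and 913 and 1353 without kidney 2. For F4/80-high against non-cystic regions the replicate block on all 18 libraries gave 3796 and 3496. Replicate numbers did not pair the samples, as deviations of same-numbered libraries correlated at -0.06, 0.07 and 0.02 in kidneys 1, 2 and 3. DESeq2's size factors gave 3168 and 3085 and its Wald test 3335 and 3150 (high against non-cystic). No gene was called in opposite directions in any of these alternatives for F4/80-high against non-cystic regions. Of the 145 named genes that were called, 132 kept their call with total counts, 117 without kidney 1 and 104 with glmTreat. Only Pkd2 changed sign, to 0.031 with total counts. The cause was not tested.

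Among named genes that were not called, Cfb turned to 0.087 with total counts and Mertk to -0.0169 with limma voom. Leaving out a library or kidney gave log2FC from -0.26 to 0.64 for Cldn8, from -0.064 to 0.084 for Cox7a2l, from -0.19 to 0.19 for Mertk and from -0.15 to 1.51 for S100a9. Folds of genes with few counts without their highest library, printed beside them, were added after seeing the data. Totals of 5366651 to 9002054 counts limit genes under about 1 CPM, whose group sums hold few counts.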
